A study of Rattus norvegicus with 15 samples.

Results

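The 10 macrophage marker genes described here were measured in 15 mammary tumour libraries: CD163, MSR1, MRC1, CSF1R, CD68, C1QA, C1QB, C1QC, LYZ2 and ITGAM. They were chosen by name, as scavenger receptor, complement C1q, receptor and enzyme genes that mark macrophages. All 10 were found among the 17463 gene symbols of the count table, and all 10 were among the 11665 genes kept by the expression filter. The tumours grew in Fischer rats treated with N-nitroso-N-methylurea (NMU), a carcinogen that induces mammary tumours, given as 2 intraperitoneal injections of 50 mg/kg. In the midkine group (9 libraries) the rats received recombinant rat midkine at 300 ug/kg, 3 times a week, in a course of 2 weeks before each injection. In the vehicle group (6 libraries) they received NMU and the vehicle of the protein. Midkine is a growth factor that binds heparin, and the series, by its title, asks whether it drives age-related change and mammary tumour formation. Each library was made from poly(A) RNA of a small piece of tumour, so it holds RNA of every cell type in that piece. The sources used here give neither the ages and number of the rats nor what the vehicle was. Some titles share a number (midkine 3-1 and 3-2, midkine 4-1, 4-2 and 4-3, vehicle 2-1 and 2-2), which may mean tumours of 1 rat, though the labels do not state it, so p-values describe the spread from library to library, part of which may be technical.

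Macrophages are phagocytes that arise from circulating monocytes or are seeded before birth, and they depend on signals through the receptor encoded by CSF1R. They clear debris, bacteria and modified lipoproteins with scavenger receptors, make most of the circulating complement component C1q, and break down what they take up in lysosomes rich in CD68. In mammary tumours they are among the most abundant immune cells, and the genes CD163, MSR1 and MRC1 are commonly read as signs of a scavenging, tissue-remodelling state.

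Libraries held 4925504 to 8486523 counted reads (median 7252603) and 13056 to 13665 detected genes. Levels are given as CPM, counts scaled to a common library size, and they are compared between libraries. Gene length is not taken into account, so a list's leading genes are those with the most reads, not with the most transcripts. Epithelial marker genes, led by KRT5 and KRT8, summed to 3352 to 15925.8 CPM in midkine and to 7664 to 11316.8 CPM in vehicle tumours. Midkine 1 stood apart by muscle RNA: the myosin gene MYH4 stood at 55760 CPM of its deposited total. MYH4 had at most 1 count in the 5 midkine libraries with title numbers 3 and 4, and 72.5 to 167 CPM of the deposited total in the other 9 libraries. No vehicle library lacked MYH4 reads, so values without those 5 libraries are given for the 10 genes and for the lists of related genes. Midkine 4-2 and midkine 3-2 stood apart by lymphoid RNA. The leukocyte gene PTPRC (CD45) reached 797 CPM in midkine 4-2 and 273 CPM in midkine 3-2, against 19.5 to 83.4 CPM in the other midkine and 15.3 to 35.5 CPM in the vehicle libraries.

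The midkine tumours had the higher mean level of every one of the 10 genes, but the libraries of the groups overlapped for each gene and no difference passed the test. Of all 11665 genes tested, 55.7% stood higher in midkine. The median log2 fold change of the 10 genes was 1.16, against 0.04 over all genes tested. None of the 10 passed an adjusted p of 0.05 by edgeR's quasi-likelihood test with Benjamini-Hochberg adjustment, as did 0% of all genes. Without adjustment, 7 of the 10 had a p under 0.05 and stood higher in midkine, where 7.96% of all genes did. That count moved both ways with single libraries left out. It was 2 without vehicle 2-1 or vehicle 3, 3 without midkine 4-2, and 4 without vehicle 2-2, vehicle 6, midkine 3-1 or midkine 4-1. It was 8 without midkine 2 or midkine 4-3, 9 without midkine 3-2, and 10 without vehicle 4, midkine 1 or midkine 5. Without vehicle 2-1 or vehicle 3 the median log2 fold change was still 1.05. DESeq2 also called none of the 10 (smallest adjusted p = 0.102, MSR1), with 0.674% of 11427 genes called higher in midkine, and at an unadjusted p under 0.05 it gave 9 of the 10. In bulk RNA, more cells of a type and more RNA per cell cannot be told apart.

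**Figure D1:**
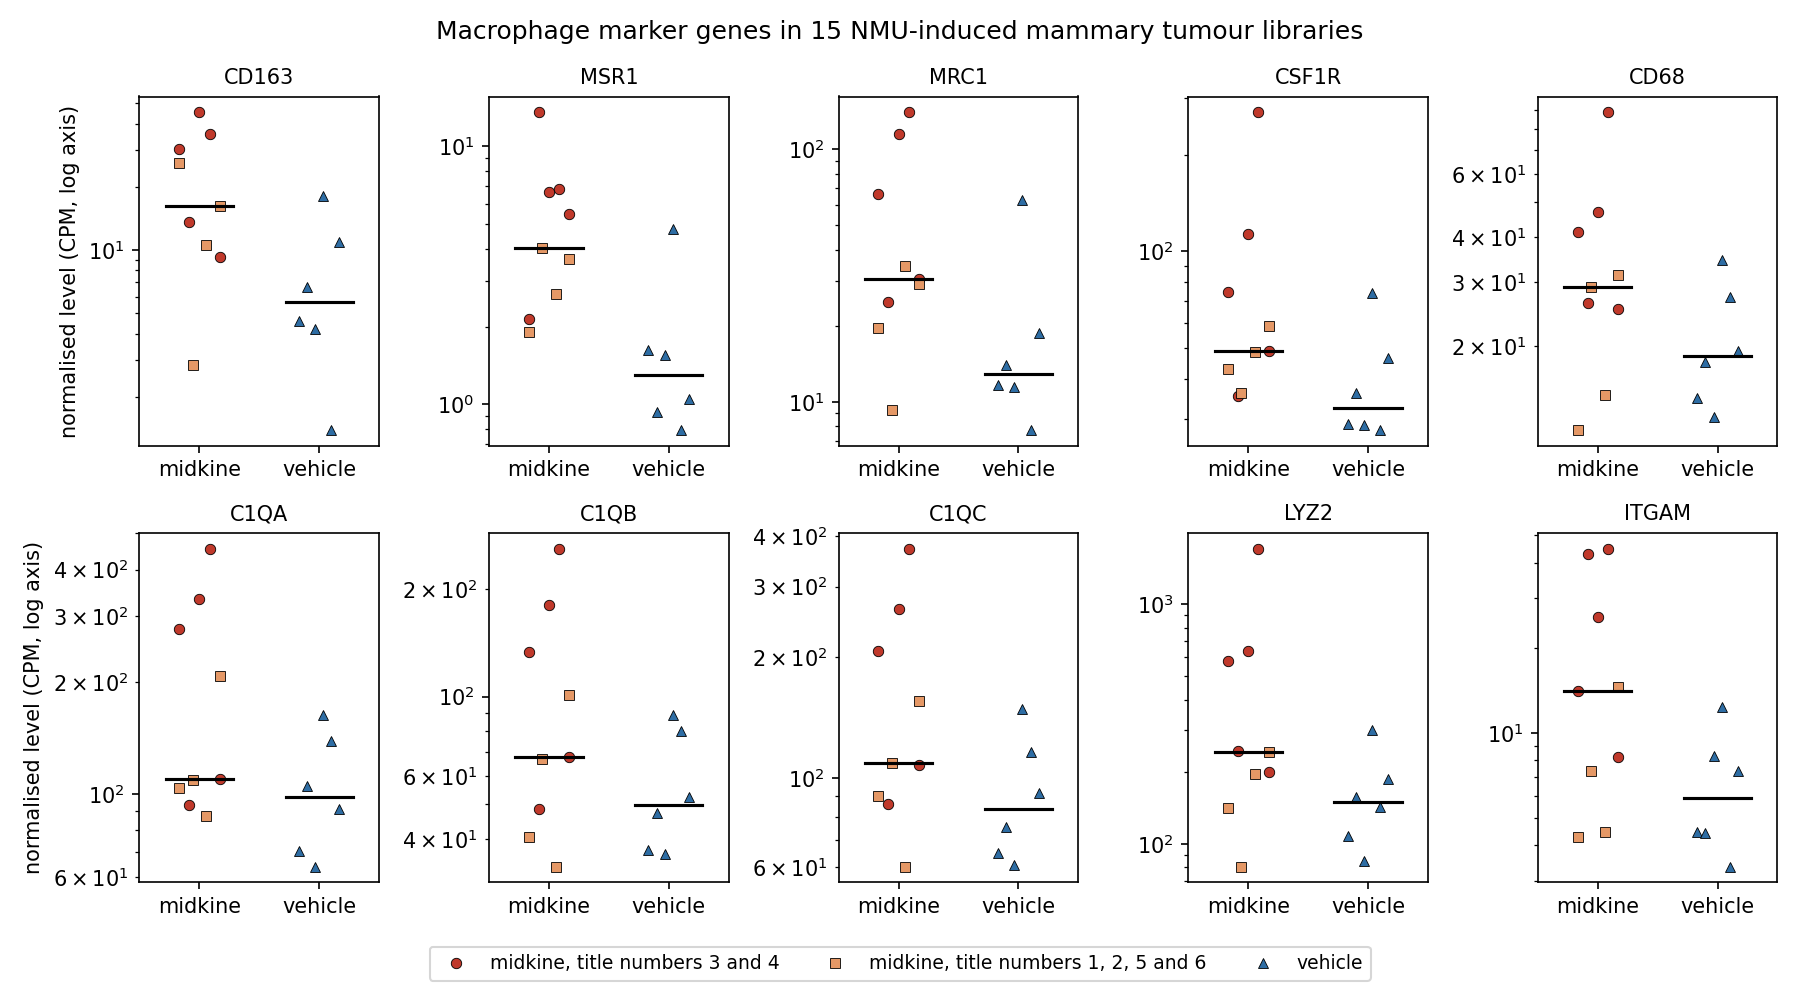
Level of each macrophage marker gene (CPM, log axis) in every library, midkine left and vehicle right, with a bar at the group median. Red circles are the 5 midkine libraries with title numbers 3 and 4, orange squares the other 4 midkine libraries and blue triangles the 6 vehicle libraries. The groups overlap for every gene, and 3 to 5 midkine libraries lie above the highest vehicle library.

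Among the scavenger receptors, CD163 takes up complexes of haemoglobin with haptoglobin. CD163 had 2.83 (midkine 2), 16.2 and 45.2 CPM (midkine 4-1) as its lowest, median and highest level in midkine tumours, against 1.39 (vehicle 5), 5.63 and 18.1 CPM (vehicle 4) in vehicle tumours. Midkine 1, 3-1, 4-1 and 4-2 lay above all vehicle libraries, and no midkine library lay below them. Midkine 1, the library rich in muscle RNA, had a scaling factor of 0.558, against 1.023 to 1.132 in vehicle libraries. A low factor raises the CPM relative to the deposited total, and the place of midkine 1 above vehicle 4 depends on it. The log2 fold change was 1.45 (SE 0.58, edgeR adjusted p = 0.431).

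MSR1 encodes the class A scavenger receptor, which binds modified lipoproteins and bacterial surface molecules. Its lowest, median and highest levels were 1.91 (midkine 1), 4.03 and 13.6 CPM (midkine 3-2) in midkine tumours, against 0.793 (vehicle 5), 1.30 and 4.79 CPM (vehicle 4) in vehicle tumours. Midkine 3-2, 4-1, 4-2 and 4-3 lay above all vehicle libraries, and all 9 midkine libraries lay above the vehicle median. MSR1 had the smallest p of the 10 genes, with a log2 fold change of 1.53 (SE 0.51, edgeR unadjusted p = 0.00844, adjusted p = 0.399). It was also the most thinly counted, with 8 to 111 reads per midkine library and 4 to 38 reads per vehicle library. Only 3 of 6 vehicle libraries reached the filter's level of 1.38 CPM for it, against 8 of 9 midkine libraries, while the other 9 genes reached it in every library. The place of MSR1 among the tested genes thus rested on the midkine libraries, in which it was higher.

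MRC1, the mannose receptor, recognises sugar chains on microbes and on the body's own glycoproteins, and lymphatic vessels can express it as well. It had 9.24 (midkine 2), 30.8 and 140 CPM (midkine 4-2) as lowest, median and highest level in midkine tumours, against 7.73 (vehicle 5), 12.9 and 63.0 CPM (vehicle 4) in vehicle tumours. Midkine 3-1, 4-1 and 4-2 lay above all vehicle libraries, and vehicle 4 lay far above the next vehicle library, at 18.7 CPM. The log2 fold change was 1.31 (SE 0.61, edgeR adjusted p = 0.493). Without vehicle 4 it was 2.03.

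CSF1R, the receptor for the growth factors CSF1 and IL34, is the lineage's survival receptor. In midkine tumours it had 35.5 (midkine 3-2), 49.0 and 271 CPM (midkine 4-2), against 27.8 (vehicle 5), 32.6 and 74.3 CPM (vehicle 4) in vehicle tumours. The next midkine library after midkine 4-2 had 113.5 CPM (midkine 4-1), and midkine 3-1, at 74.9 CPM, lay just above vehicle 4. The log2 fold change was 1.01 (SE 0.45, edgeR adjusted p = 0.477), and without midkine 4-2 it was 0.51.

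ITGAM encodes the alpha chain of complement receptor 3, a receptor for cleaved C3 that monocytes, macrophages and neutrophils share. Its lowest, median and highest levels were 4.29 (midkine 1), 14.1 and 44.7 CPM (midkine 4-2) in midkine tumours, against 3.37 (vehicle 5), 5.91 and 12.3 CPM (vehicle 4) in vehicle tumours. Midkine 3-1, 3-2, 4-1, 4-2 and 6 lay above all vehicle libraries, more than for any of the other 9 genes, with midkine 3-2, at 42.9 CPM, close to the highest. The log2 fold change was 1.46 (SE 0.56, edgeR adjusted p = 0.408).

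CD68 encodes a glycoprotein of the lysosomal membrane. It had 11.7 (midkine 1), 29.1 and 88.9 CPM (midkine 4-2) in midkine tumours, against 12.7 (vehicle 3), 18.7 and 34.5 CPM (vehicle 4) in vehicle tumours. Midkine 3-1, 4-1 and 4-2 lay above all vehicle libraries and midkine 1 below them. Its log2 fold change, 0.74 (SE 0.39, edgeR adjusted p = 0.555), was the smallest of the 10, and it was 0.43 without midkine 4-2.

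LYZ2 encodes a lysozyme, an enzyme that cuts bacterial cell walls and that neutrophils make too. The rat genome holds a closely similar lysozyme gene, and the sources used here do not say how reads were divided between the copies, so its values are uncertain. LYZ2 had 80.4 (midkine 2), 242 and 1705 CPM (midkine 4-2) in midkine tumours, against 84.7 (vehicle 3), 149 and 298 CPM (vehicle 4) in vehicle tumours. Midkine 3-1, 4-1 and 4-2 lay above all vehicle libraries and midkine 2 below them. The log2 fold change was 1.46 (SE 0.59, edgeR adjusted p = 0.433), and without midkine 4-2 it was 0.83.

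The genes C1QA, C1QB and C1QC encode the chains of C1q, which binds antibody complexes and dying cells and starts the classical complement pathway. C1QA had 87.5 (midkine 5), 110 and 454 CPM (midkine 4-2) in midkine tumours, against 63.9 (vehicle 3), 98.1 and 163 CPM (vehicle 4) in vehicle tumours. C1QB had 33.5 (midkine 5), 68.0 and 259 CPM (midkine 4-2) in midkine tumours, against 36.3 (vehicle 3), 49.9 and 88.5 CPM (vehicle 4) in vehicle tumours. C1QC had 60.2 (midkine 5), 109 and 372 CPM (midkine 4-2) in midkine tumours, against 60.8 (vehicle 3), 83.7 and 149 CPM (vehicle 4) in vehicle tumours. For all 3 chains the same midkine libraries, 3-1, 4-1, 4-2 and 6, lay above all vehicle libraries, and midkine 5 lay below them for C1QB and C1QC. The log2 fold changes by edgeR were 0.91 for C1QA (SE 0.40, adjusted p = 0.462), 0.86 for C1QB (SE 0.43, adjusted p = 0.528) and 0.80 for C1QC (SE 0.38, adjusted p = 0.497). The group medians lay closer together than the means: for C1QA the ratio of the medians was 1.12 and that of the means 1.88, midkine over vehicle. Without midkine 4-2 the C1QB log2 fold change was 0.56.

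**Figure D2:**
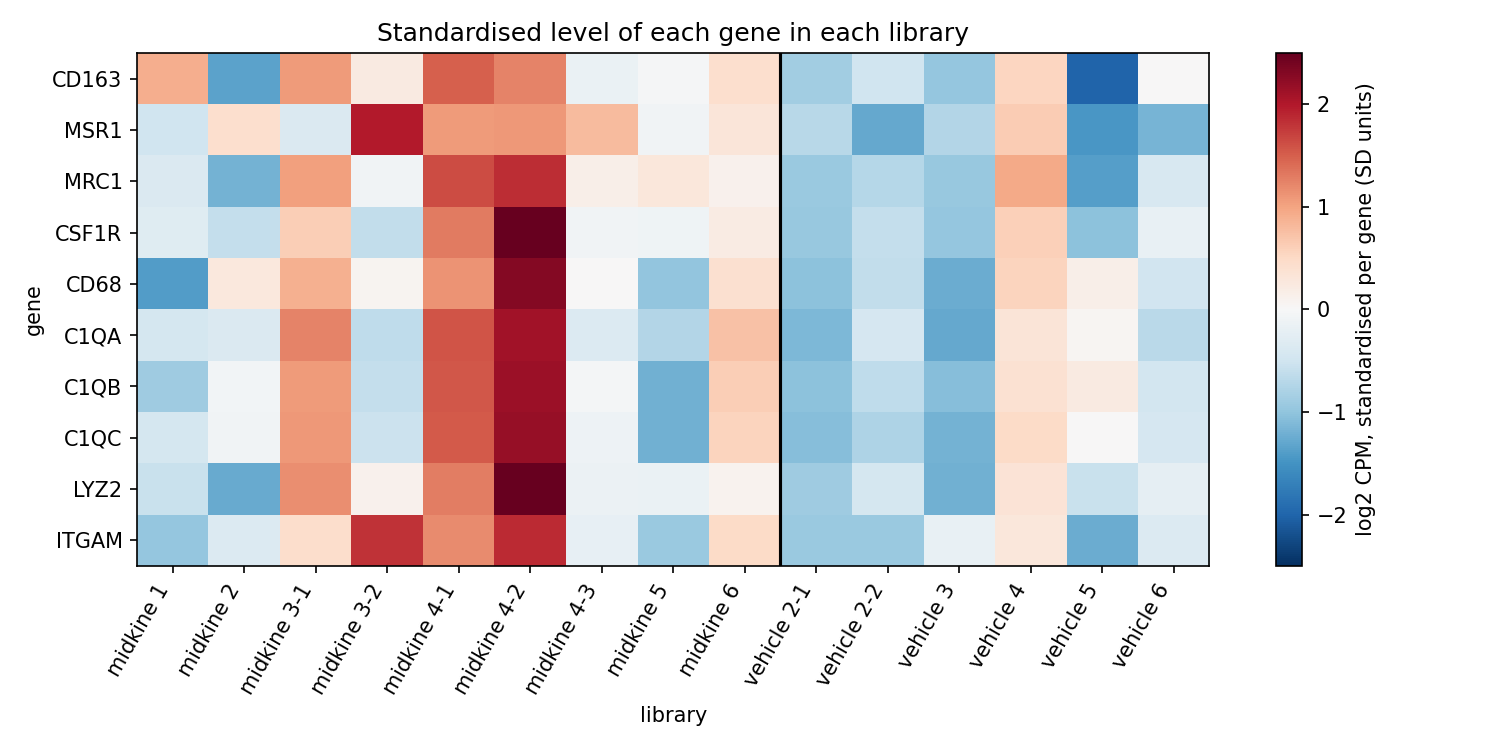
Level of each gene in each library, as log2 CPM minus the gene's mean over the 15 libraries, divided by its SD; red is high and blue is low, with midkine libraries left of the line and vehicle libraries right of it. Midkine 4-2 and 4-1 are among the 3 highest libraries for all 10 genes, and vehicle 4 is the reddest vehicle library.

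Levels of the 10 genes differed widely within each group. The mean log2 CPM of the 10 genes was highest in midkine 4-2 (7.13), midkine 4-1 (6.55) and midkine 3-1 (5.98), and vehicle 4 (5.68) came next, ahead of midkine 6 (5.52). It was lowest in vehicle 3 (4.18), with midkine 1, 5 and 2 between vehicle 6 and vehicle 2-2. As group means it stood at 5.52 ± 0.88 in midkine and 4.58 ± 0.57 in vehicle tumours (SD, n = 9 and 6), so the ranges of the groups overlap. Midkine 4-2 and 4-1 were among the 3 highest libraries for all 10 genes, midkine 3-1 for 8 and midkine 3-2 for the remaining pair, MSR1 and ITGAM. Vehicle 4 was the highest vehicle library for all 10 genes. Libraries that share a title number were close in some cases and not in others: midkine 4-2 and 4-1 ranked at the top and vehicle 2-2 (4.44) and 2-1 (4.19) near the bottom, while midkine 4-3 stood at 5.14.

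When the 5 midkine libraries with title numbers 3 and 4 were left out, the 10 genes still stood higher in midkine, 4 libraries against 6, where 53.2% of 11611 genes did. The sizes were smaller: the median log2 fold change was 0.19, and none of the 10 had an unadjusted p under 0.05 by edgeR. CD163 (0.85, SE 0.67) and MSR1 (0.78, SE 0.52) had the largest log2 fold changes in that comparison. Of its 4 midkine libraries, CD163 was highest in the muscle-rich midkine 1 (25.95 CPM). It had 16.2 CPM in midkine 6, 10.5 CPM in midkine 5 and 2.83 CPM in midkine 2. Leaving out midkine 1 as well was not tested. C1QA (0.28), CSF1R (0.21), ITGAM (0.20), C1QC (0.17), MRC1 (0.14) and C1QB (0.10) followed, and CD68 (0.06) and LYZ2 (0.03) were nearest to no difference. Whether the treatment or another property of those 5 libraries goes with the higher levels cannot be told apart here, since no vehicle library resembled them in MYH4. The 5 were not uniformly high. Midkine 3-2 (5.41) and midkine 4-3 (5.14) had a lower mean log2 CPM of the 10 genes than vehicle 4 (5.68).

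**Figure D3:**
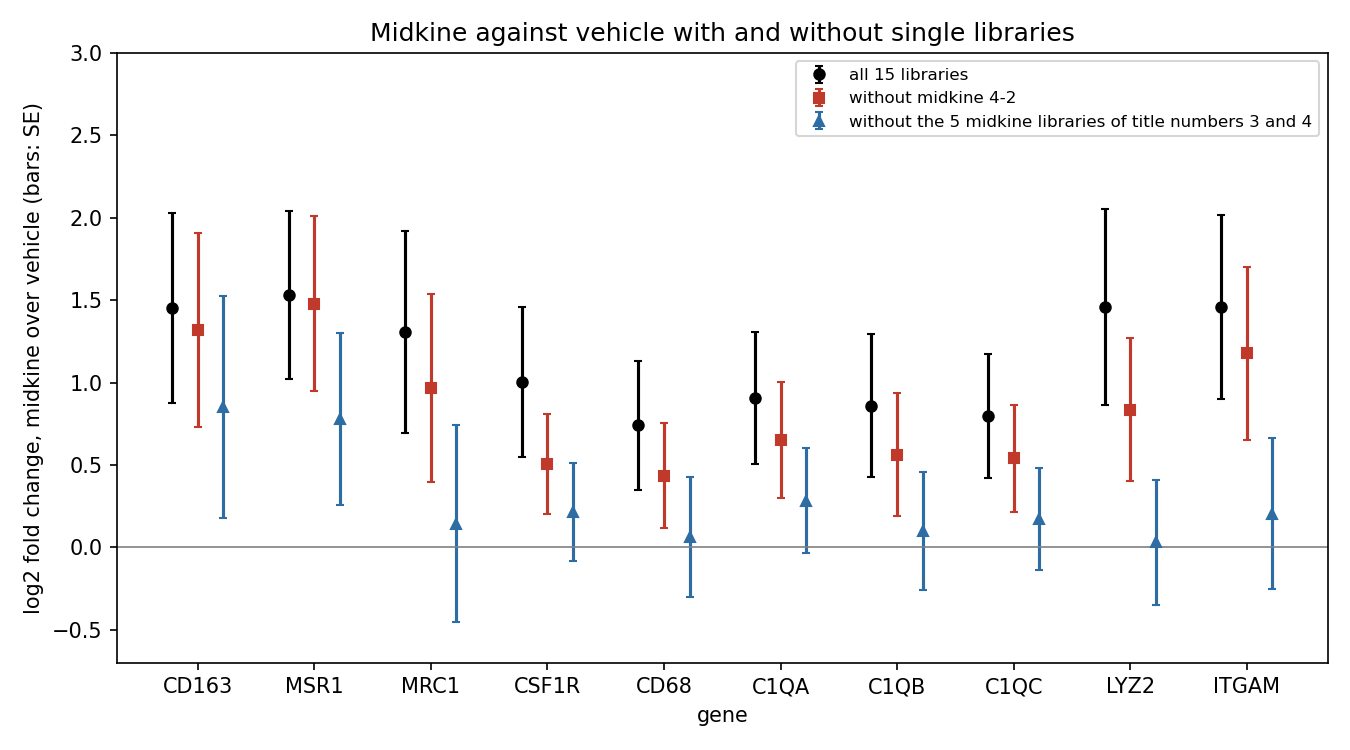
Log2 fold change of each gene, midkine over vehicle, by edgeR with bars of 1 SE. Black circles use all 15 libraries, red squares leave out midkine 4-2, and blue triangles leave out the 5 midkine libraries with title numbers 3 and 4. The values lie above 0, and the blue ones, from 0.03 for LYZ2 to 0.85 for CD163, lie lowest for every gene.

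Markers of lymphoid cells were highest in some of the same libraries. The T and NK cell list (all 17 genes present) summed to 1826 CPM in midkine 4-2 and 673 CPM in midkine 3-2, with a midkine range of 39.2 to 1826 CPM (median 137), against 36.2 to 100 CPM in vehicle (median 64.3). Its most abundant genes were LCK and CD3E. B and plasma cell markers (10 of 12 present, led by CD22 and CR2) reached 1087 CPM in midkine 4-2, with a midkine range of 4.62 to 1087 CPM against 2.39 to 8.44 CPM in vehicle. The lymph node stroma list (8 of 8, led by CLU and GLYCAM1) spanned 484 to 4529 CPM in midkine, highest in midkine 4-2, against 551 to 707 CPM in vehicle. Its sum does not read lymph node stroma alone, since CLU averaged 563 CPM in vehicle tumours and had 1968 CPM in midkine 4-2. Midkine 5 came second at 3391 CPM, with 2440 CPM of GLYCAM1, but had only 67.5 CPM of the T and NK cell list and 11.6 CPM of B and plasma cell markers. The lymph node chemokine CCL21 alone made up 1549 CPM of the list in midkine 4-2. The part of these cells in the levels of CSF1R, CD68 and LYZ2, which were highest in midkine 4-2, was not tested. Without midkine 4-2 the median log2 fold change of the 10 macrophage genes was 0.74, and 3 had an unadjusted p under 0.05.

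For ITGAM and LYZ2, which neutrophils share, the neutrophil list (14 of 15 genes present, led by LCN2 and MMP9) summed to 17.6 to 114 CPM in midkine (median 72.7), against 28.6 to 133 CPM in vehicle (median 70.9). LCN2, its most abundant gene, averaged 47.5 ± 26.4 CPM in midkine and 67.8 ± 37.7 CPM in vehicle tumours, while most others had higher means in midkine. These included MMP9 (13.4 CPM in midkine and 4.25 CPM in vehicle), S100A9 (2.21 CPM in midkine and 0.625 CPM in vehicle), S100A8 (0.643 CPM in midkine and 0.25 CPM in vehicle), CSF3R (1.90 CPM in midkine and 0.603 CPM in vehicle) and CXCR2 (1.46 CPM in midkine and 0.365 CPM in vehicle). CSF3R reached 9.38 CPM and CXCR2 5.05 CPM in midkine 4-2. The granule gene ELANE was near 0, at up to 0.155 CPM in midkine and 0.131 CPM in vehicle libraries, and FPR1 had no count in any library. Dendritic cell markers (8 of 10, led by FSCN1 and CCR7) summed to 48.2 to 489 CPM in midkine, highest in midkine 4-2 and 3-2, against 63.8 to 132 CPM in vehicle. Monocyte markers (5 of 8, led by PLAC8 and VCAN) summed to 427 to 1192 CPM in midkine (median 682), against 881 to 1297 CPM in vehicle (median 1008). Endothelial and lymphatic markers (13 of 13, led by PDPN and VWF), a cell type that can share MRC1, summed to 364 to 1071 CPM in midkine (median 622), against 276 to 521 CPM in vehicle (median 376). Fibroblast markers (11 of 11, led by COL1A1 and COL3A1) summed to 463 to 145599 CPM in midkine (median 6525), against 649 to 11191 CPM in vehicle (median 2291). Midkine 5, in which C1QA, C1QB and C1QC were lowest among midkine libraries, held that highest value, and the next midkine library had 8800 CPM. All 10 tested fibroblast genes stood higher in midkine, where 55.7% of all genes did (median log2 fold change 1.55, and 2.25 without title numbers 3 and 4 of midkine). With single libraries left out, all 10 were lowest without midkine 5. Without it they ran from 0.071 for POSTN to 2.14 for DPT, with COL1A1 at 0.45. Adipocyte genes (4 of 4 tested, sum highest in midkine 1 at 841 CPM) and erythroid genes (5 of 5 tested) also stood higher in midkine, with medians of 2.00 and 0.90. The part of these cells in the results was not tested. Of 12 further genes listed as macrophage markers, led by LAPTM5 and MPEG1, 11 were tested. All 11 stood higher in midkine, where 55.7% of all genes did, with none past the edgeR threshold and a median log2 fold change of 0.80. Without title numbers 3 and 4 of midkine 7 of the 11 stood higher, where 53.2% of all genes did, with a median of 0.12. Without midkine 4-2 it was 10 of the 11, with a median of 0.60. The list summed to 155 to 1851 CPM in midkine (median 365), against 153 to 330 CPM in vehicle (median 220.5). It is not specific to macrophages, since lymphoid cells share LAPTM5 and CD53. These reached 774 CPM and 304 CPM in midkine 4-2, and the part of lymphoid cells in them was not tested.

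To ask whether the genes kept their proportions, each was set against CSF1R in the same library as a log2 ratio of CPM, and midkine was compared with vehicle by an exact permutation test over the 5005 splits into 9 and 6 libraries (two-sided, Benjamini-Hochberg over 9 ratios). Only differences of a ratio between libraries are read, since its size depends on gene length. None of the 9 ratios passed. The CD163 ratio averaged -1.95 ± 0.89 in midkine and -2.64 ± 0.75 in vehicle tumours (SD, n = 9 and 6), a difference of 0.69 (exact p = 0.147, adjusted p = 0.662). The differences were 0.64 for MSR1 (exact p = 0.237, adjusted p = 0.711) and 0.46 for MRC1 (exact p = 0.143, adjusted p = 0.662). Single libraries moved these: the CD163 difference was 0.40 without vehicle 5 and the MSR1 difference 0.34 without midkine 3-2, and without title numbers 3 and 4 of midkine the MRC1 difference was 0.083. ITGAM differed by 0.33 and LYZ2 by 0.22, while C1QA (-0.03), C1QC (-0.12), C1QB (-0.13) and CD68 (-0.17) were on average lower in midkine relative to CSF1R. These 4 negative differences turned positive when vehicle 5 was left out: 0.15 for C1QA, 0.048 for C1QC, 0.077 for C1QB and 0.0065 for CD68. The C1QA difference was also positive without midkine 4-2 (0.048) or midkine 5 (0.036), and those of LYZ2 (-0.25) and ITGAM (-0.14) were negative without title numbers 3 and 4 of midkine. Without midkine 3-2 the ITGAM difference was 0.01. Against CD68 in place of CSF1R none passed either (smallest exact p = 0.0903 and adjusted p = 0.539, MSR1).

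**Figure D4:**
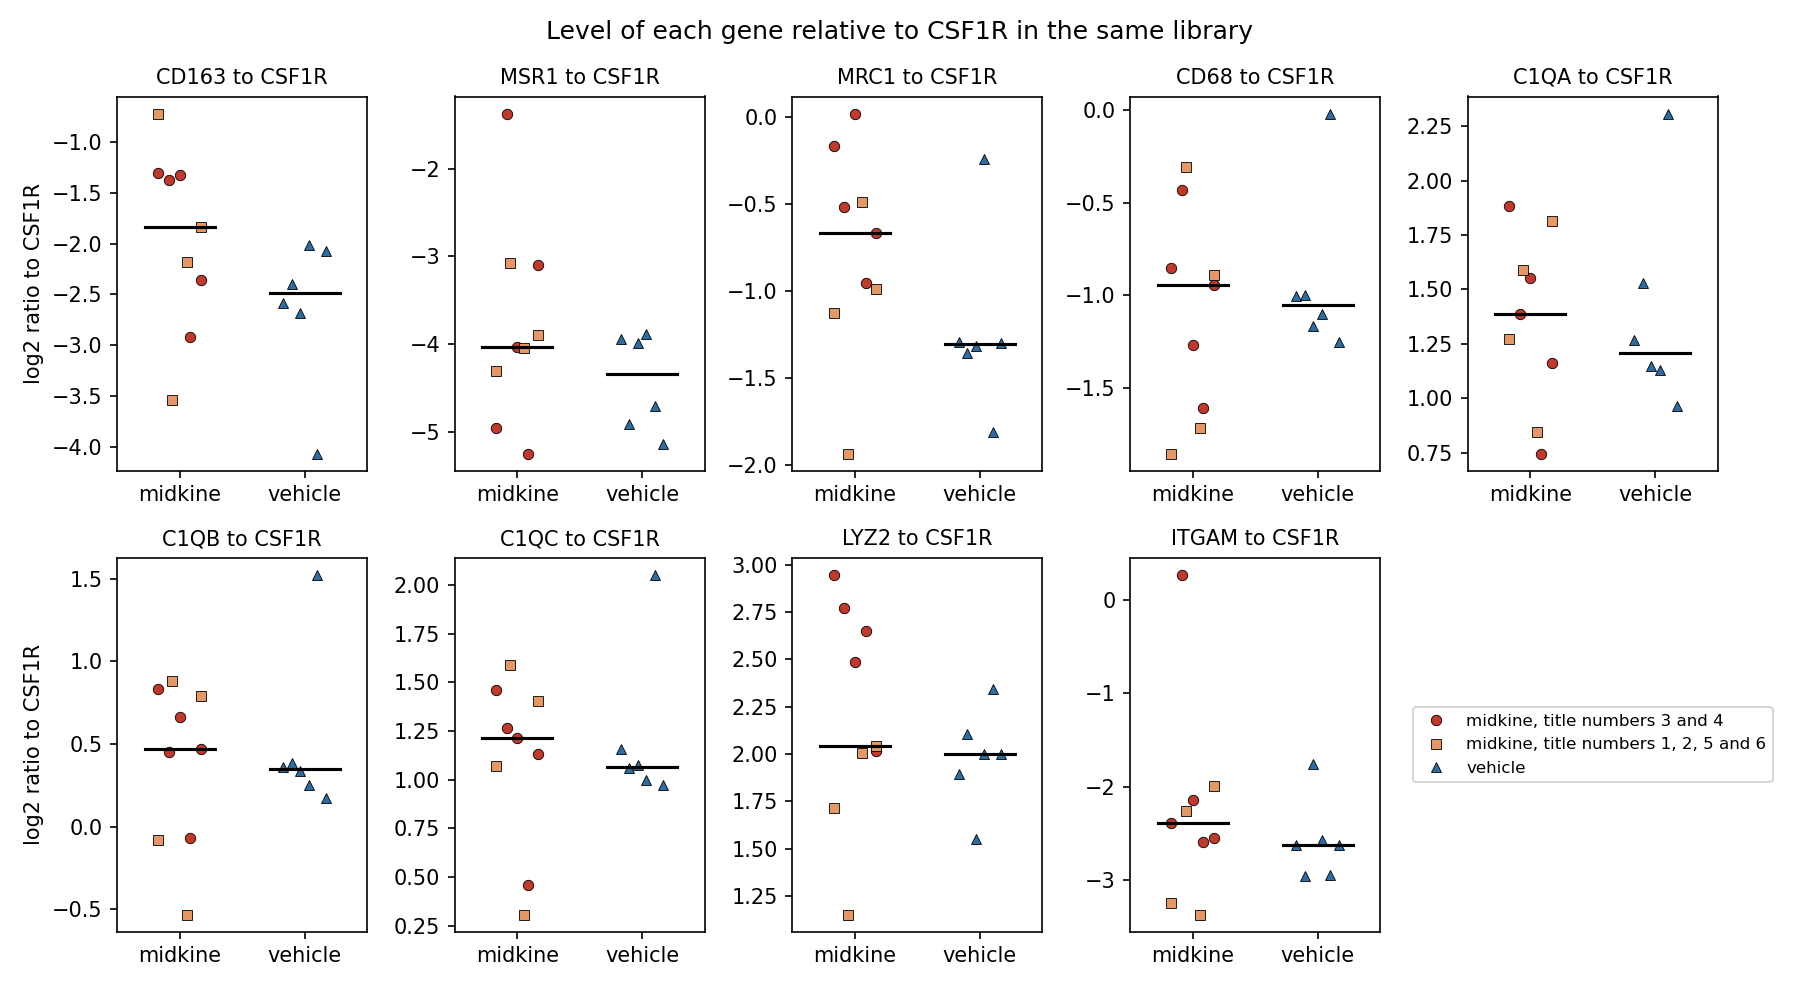
Log2 ratio of each gene to CSF1R in every library, midkine left and vehicle right, with a bar at the group median; red circles are midkine libraries with title numbers 3 and 4, orange squares the other midkine libraries and blue triangles the vehicle libraries. Midkine 3-2 lies alone at the top for ITGAM (0.27) and MSR1 (-1.37), and vehicle 5 alone at the bottom for CD163 (-4.07) and at the top for the C1q chains and CD68.

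Single libraries departed from the common proportions. In midkine 3-2 the ITGAM ratio was 0.27, against -1.99 or lower in the other midkine libraries and -1.76 or lower in vehicle libraries, and MSR1 stood at -1.37, against -3.08 or lower in the other midkine libraries and -3.88 or lower in vehicle libraries. Vehicle 5 had the lowest CD163 ratio of all libraries, -4.07, beside the highest ratios of C1QA (2.31), C1QB (1.52), C1QC (2.05) and CD68 (-0.02). Midkine 2 came nearest to it, with a CD163 ratio of -3.54 and a CD68 ratio of -0.31. Midkine 1 lay at the other end, with the highest CD163 ratio (-0.72) and the lowest CD68 ratio (-1.85).

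The C1q chains kept nearly fixed shares among themselves. C1QA took 42.7 ± 3.23% of the reads of the 3 genes in midkine and 41.2 ± 2.57% in vehicle tumours (SD, n = 9 and 6; exact p = 0.348, adjusted p = 0.585). C1QB took 21.6 ± 2.36% in midkine and 22.2 ± 1.07% in vehicle (exact p = 0.585, adjusted p = 0.585). C1QC took 35.6 ± 2.33% in midkine and 36.6 ± 2.20% in vehicle tumours (exact p = 0.455, adjusted p = 0.585). Across all libraries the C1QA share ran between 38.3% and 48.3%, while the C1QA level spanned 5.20-fold among midkine and 2.55-fold among vehicle libraries.

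Across the 15 libraries the genes varied together, most of all within C1q. Over the 45 pairs of the 10 genes, Pearson's r of log2 CPM had a median of 0.77 and ran from 0.39 (MSR1 with C1QA) to 0.99 (C1QB with C1QC). By a permutation test with 100000 resamples and Benjamini-Hochberg adjustment over the 45 pairs, 38 passed on Pearson's r and 40 on Spearman's rho. The share of passing pairs among other genes was not computed, so these counts do not set the 10 genes apart from others. C1QB and C1QC had r = 0.99 and rho = 0.99 (unadjusted permutation p = 1e-05, the smallest they can give), and r was 0.98 without midkine 4-2 and 4-1, the libraries farthest from the median. CD68 followed C1QB with r = 0.96 and rho = 0.94. Leaving out the 2 farthest libraries in each pair gave a median r of 0.68. With each group's mean taken off, the median r was 0.71, and 31 pairs passed on r and 33 on rho. In the 10 libraries without title numbers 3 and 4 of midkine, the median r was 0.53, and 11 pairs passed on r and 11 on rho. Libraries of the same rat, if there are any, would be counted more than once in these tests, and with title numbers summed 33 pairs passed on Pearson's r and 17 on Spearman's rho. On rho 21 pairs passed without midkine 4-2 and 24 without midkine 4-1.

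**Figure D5:**
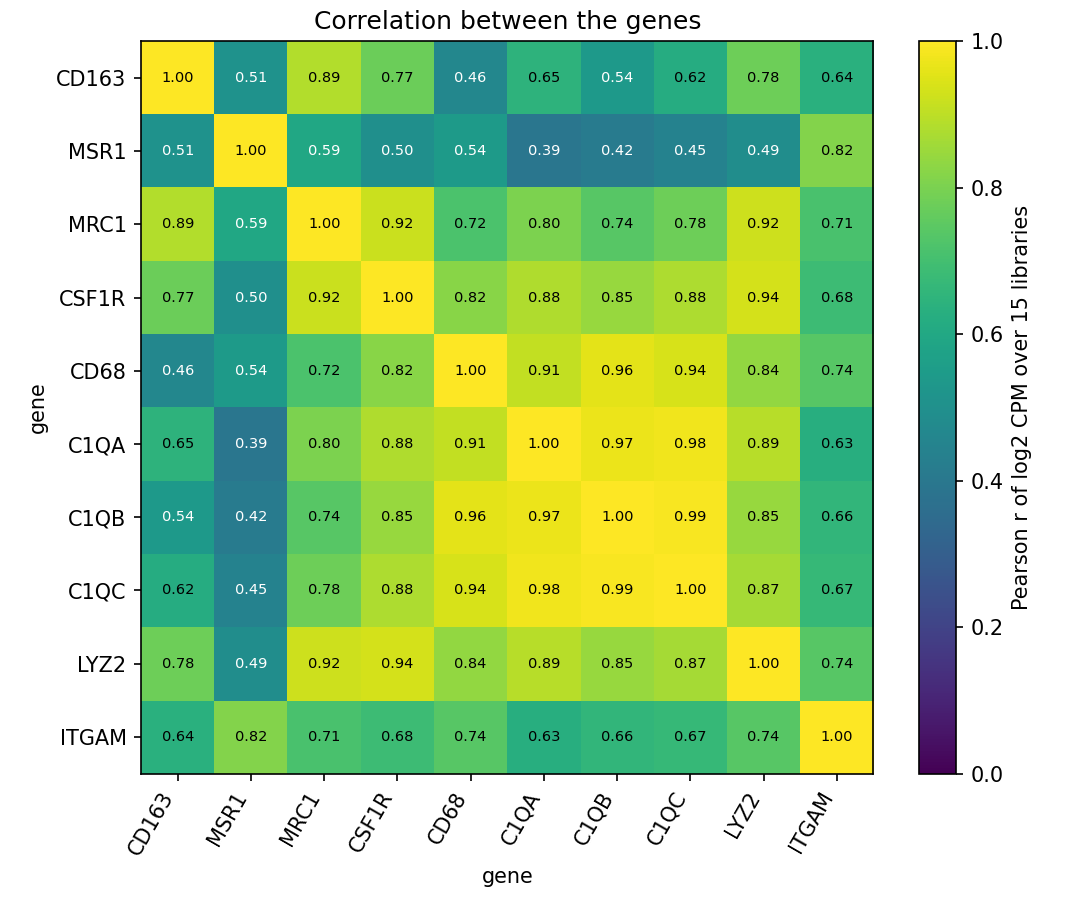
Pearson's r of log2 CPM over 15 libraries for each pair of the 10 genes, from 0 (dark) to 1 (yellow). C1QA, C1QB, C1QC and CD68 form the brightest block, with r of 0.91 to 0.99, and the row of MSR1 is the darkest, with r of 0.39 to 0.82.

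Within the set the genes fell along different lines. CSF1R, MRC1 and LYZ2 were correlated at r = 0.92 (CSF1R with MRC1, rho 0.93), 0.94 (CSF1R with LYZ2, rho 0.83) and 0.92 (MRC1 with LYZ2). CSF1R with LYZ2 had r = 0.82 without midkine 4-2 and 4-1. CD163 went most closely with MRC1 (r = 0.89, rho 0.88), and least with CD68 (r = 0.46, rho 0.52, permutation adjusted p = 0.0898). MSR1 passed in 3 of its 9 pairs on Pearson's r and in 6 on Spearman's rho, with a median r of 0.50, and went most closely with ITGAM (r = 0.82, rho 0.76, permutation adjusted p = 0.00055). That value was 0.71 without midkine 3-2 and vehicle 5. On Pearson's r MRC1 and ITGAM passed in all 9 of their pairs, and on Spearman's rho MRC1 passed in 9 and ITGAM in 8.

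Among the genes whose level over the 15 libraries was most like the mean standardised level of the 10 were MPEG1 (r = 0.94, rho 0.86), MYO1F (0.93, 0.85), FCGR2B (0.92, 0.90), CRMP1 (0.92, 0.77), CD300C2 (0.92, 0.87), PSTPIP1 (0.92, 0.81) and TNFAIP8L2 (0.92, 0.82). MPEG1 encodes the pore-forming protein perforin-2 of phagocytes and FCGR2B the inhibitory Fc receptor. MPEG1 averaged 80.3 ± 65.1 CPM in midkine and 46.0 ± 15.2 CPM in vehicle tumours (SD, n = 9 and 6), and FCGR2B averaged 13.5 ± 11.3 CPM in midkine and 3.55 ± 1.16 CPM in vehicle tumours.

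Since the genes varied together, their promoters were read for the core GAGGAA of the binding motif of PU.1, the product of SPI1, a transcription factor of the macrophage lineage. RefSeq promoters of the assembly GRCr8, from 250 bases before to 50 bases after the gene's start, were matched for 8 of the 10 genes, all but MSR1 and C1QC. That assembly is not rn6, the build named in the submitters' processing notes, and no count was taken from these positions. GAGGAA, on either strand, was present in 6 of the 8, against 27.6% of 33469 promoters. It was found at 2 places each in MRC1, CSF1R, CD68, C1QB and ITGAM, at 1 in LYZ2, and not in the windows of CD163 and C1QA. The longer form GAGGAAGT was in none of the 8 and in 2.42% of all promoters. A match is a description of the letters and not a bound site. The promoters of CSF1R (chr18:56834129-56834428, plus strand), CD68 (chr10:54882392-54882691, minus strand), C1QB (chr5:154407778-154408077, minus strand) and C1QA (chr5:154419884-154420183, minus strand) are shown 5′ to 3′ along the gene's strand. C1QB and C1QA are shown because they varied together while only C1QB holds the exact letters GAGGAA. Other variants of the motif were not searched, so a window without GAGGAA, such as that of C1QA, may still hold one. Capitals mark GAGGAA or its reverse complement TTCCTC.
CSF1R: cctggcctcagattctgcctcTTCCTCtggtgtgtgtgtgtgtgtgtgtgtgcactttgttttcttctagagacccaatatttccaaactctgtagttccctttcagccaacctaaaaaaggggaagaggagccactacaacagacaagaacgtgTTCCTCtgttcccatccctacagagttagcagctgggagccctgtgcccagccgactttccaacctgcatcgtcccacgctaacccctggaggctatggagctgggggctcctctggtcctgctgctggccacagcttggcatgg
CD68: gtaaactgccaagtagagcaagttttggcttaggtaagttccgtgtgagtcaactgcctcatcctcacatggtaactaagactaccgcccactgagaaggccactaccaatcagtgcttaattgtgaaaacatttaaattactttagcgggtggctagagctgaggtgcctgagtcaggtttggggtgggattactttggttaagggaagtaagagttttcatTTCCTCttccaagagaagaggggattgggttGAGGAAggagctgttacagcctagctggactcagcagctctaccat
C1QB: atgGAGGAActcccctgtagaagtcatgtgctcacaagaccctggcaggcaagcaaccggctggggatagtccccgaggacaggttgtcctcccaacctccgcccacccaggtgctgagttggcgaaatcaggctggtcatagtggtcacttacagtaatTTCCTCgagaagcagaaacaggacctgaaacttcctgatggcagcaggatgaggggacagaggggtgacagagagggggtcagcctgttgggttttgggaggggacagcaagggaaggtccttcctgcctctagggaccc
C1QA: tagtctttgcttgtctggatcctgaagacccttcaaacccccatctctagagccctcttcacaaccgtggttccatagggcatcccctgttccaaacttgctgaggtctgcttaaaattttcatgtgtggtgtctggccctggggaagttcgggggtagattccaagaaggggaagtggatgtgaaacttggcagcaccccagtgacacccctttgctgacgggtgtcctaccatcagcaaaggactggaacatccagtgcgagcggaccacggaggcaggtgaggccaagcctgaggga

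The other genes of macrophage biology were read in 6 lists. None of their tested genes passed the edgeR threshold, and the counts of unadjusted p under 0.05 stand against 7.96% of all genes. Counts of genes that stood higher stand against 55.7% of all genes, and against 53.2% without title numbers 3 and 4 of midkine. With library totals as the only scaling, 4198 of all 11665 genes stood higher. DESeq2 calls stand against 0.674% of genes called higher in midkine. Counts near these shares say little about a list. Of 14 growth factor and lineage regulator genes, all tested, 13 stood higher in midkine and 7 of them had an unadjusted p under 0.05. The median log2 fold change was 0.99, and 0.56 over the 13 genes still tested without title numbers 3 and 4 of midkine. DESeq2 called 1 of them. SPI1, which encodes PU.1, averaged 30.3 ± 21.96 CPM in midkine and 13.2 ± 4.70 CPM in vehicle tumours (log2 fold change 1.20, SE 0.38). The transcription factor gene MAF averaged 32.2 ± 25.6 CPM in midkine and 8.19 ± 5.98 CPM in vehicle tumours (1.97, SE 0.60). TFEC, of the MiT family of factors, averaged 2.83 ± 2.05 CPM in midkine and 0.941 ± 0.459 CPM in vehicle tumours (1.59, SE 0.48). It was thinly counted, with at most 1.57 CPM in a vehicle library, and the filter dropped it without title numbers 3 and 4 of midkine. Its place among the tested genes thus rested on midkine libraries in which it was high. The ligands of CSF1R, named after their values were seen, were CSF1 (45.8 ± 49.6 CPM in midkine and 17.5 ± 5.20 CPM in vehicle, log2 fold change 1.39, 0.76 without midkine 3-2) and IL34 (18.8 ± 12.2 CPM in midkine and 9.47 ± 2.52 CPM in vehicle, log2 fold change 0.99).

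Of 16 complement genes around C1q, 14 were tested, 10 stood higher in midkine and 6 had an unadjusted p under 0.05 and stood higher (median log2 fold change 0.93, and 0.13 without title numbers 3 and 4 of midkine). DESeq2 called 2. C1R, a protease that joins C1q, averaged 237 ± 104 CPM in midkine and 120 ± 37.5 CPM in vehicle tumours (log2 fold change 0.98, SE 0.29). C1S, the protease that C1R activates, averaged 184 ± 162 CPM in midkine and 53.7 ± 26.4 CPM in vehicle tumours (1.78, SE 0.52). C3, the central component whose fragments ITGAM's receptor binds, averaged 90.1 ± 49.7 CPM in midkine and 40.2 ± 8.22 CPM in vehicle tumours (log2 fold change 1.16, SE 0.33, edgeR adjusted p = 0.399). ITGB2, the partner chain of ITGAM, named after its values were seen, averaged 69.6 ± 101 CPM in midkine and 20.2 ± 7.25 CPM in vehicle tumours, with 332 CPM in midkine 4-2. Its log2 fold change was 1.79 (SE 0.67), and 0.87 without midkine 4-2.

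Of 18 other scavenger and uptake receptors, 13 were tested, 10 stood higher in midkine (8 with library totals as the only scaling) and 3 of these had an unadjusted p under 0.05 (median log2 fold change 0.42). Without title numbers 3 and 4 of midkine 8 of the 13 stood higher, with a median of 0.29. DESeq2 called 2 of them. The lipid receptor CD36, which fat cells share, averaged 14.7 ± 16.5 CPM in midkine and 1.72 ± 1.98 CPM in vehicle tumours, with 48.1 CPM in midkine 1. OLR1, a receptor for oxidised lipoprotein, averaged 16.2 ± 21.0 CPM in midkine and 1.84 ± 2.20 CPM in vehicle, with 66.9 CPM in midkine 3-2. Its log2 fold change was 3.15 (SE 1.04), and 0.29 without title numbers 3 and 4 of midkine. The ferritin receptor SCARA5 averaged 13.6 ± 9.96 CPM in midkine and 4.91 ± 3.74 CPM in vehicle. Of 13 tested Fc receptor and myeloid signalling genes, all 13 stood higher in midkine and 4 had an unadjusted p under 0.05, with a median log2 fold change of 0.56. With library totals as the only scaling 12 stood higher, and without midkine 4-2 it was 11. Without title numbers 3 and 4 of midkine 6 of the 13 stood higher, with a median of -0.04. In that list FCGR2A had a log2 fold change of 0.88 (SE 0.27), FCGR2B of 1.92 (SE 0.55) and the kinase gene SYK of 1.49 (SE 0.58), which was 0.65 without midkine 4-2. DESeq2 called 1 gene of that list.

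Of 17 lysosomal genes, 14 stood higher in midkine (11 with library totals as the only scaling), 1 with an unadjusted p under 0.05, and the median log2 fold change was 0.21, also without title numbers 3 and 4 of midkine. The protease genes CTSZ (0.62, SE 0.26), CTSL (0.93, SE 0.44) and CTSB (0.33, SE 0.20) had the smallest p-values of the list. CTSL was 0.29 without midkine 3-2. Of 14 tested activation genes, 12 stood higher in midkine and 4 of them had an unadjusted p under 0.05 (median 0.77, and 0.04 without title numbers 3 and 4 of midkine). NOS2, whose enzyme makes nitric oxide, reached 184.5 CPM in midkine 3-2 and 2.77 CPM in the highest vehicle library (log2 fold change 4.30, SE 1.43, and 0.93 without midkine 3-2). The cytokine gene IL1B reached 186 CPM in midkine 3-2 and 6.94 CPM in the highest vehicle library (3.07, SE 1.10, and 1.03 without midkine 3-2). SIGLEC1, a sialic acid receptor of lymph node and tissue macrophages, had 2.56 (SE 1.04), and 0.60 without midkine 4-2. DESeq2 called none of the lysosomal or activation genes.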

How the data were processed

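The deposited data are raw read counts per gene symbol for 15 libraries, as whole numbers, per the file headers and values. The submitters' processing notes name the build rn6. The sources used here do not give the aligner version, counting mode, strand setting or annotation. Libraries were grouped by the treatment label. The 10 genes, the lists and the tests were chosen with earlier results of these data known.

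From the deposited counts, edgeR 4.0.16 (R 4.3.3) kept 11665 genes by its expression filter by group (count minimum 10), scaled by trimmed mean of M-values (TMM) and tested midkine against vehicle over all genes (quasi-likelihood F test, Benjamini-Hochberg, threshold 0.05). The standard error is the log2 fold change divided by the square root of F. DESeq2 1.42.0 and limma-voom 3.58.1 were alternatives, beside other scaling, no filter and libraries left out. Levels are CPM of the kept genes after TMM scaling, with log2 values using a prior count of 2. Ratios, shares and correlations were tested by permutation in Python 3.11.15 (scipy 1.17.1). The tests were run first on simulated data. Libraries within a group all differed by more than counting noise (lowest chi-square per degree of freedom 20.25). Each list's 3 genes of smallest p were named, with CSF1, IL34 and ITGB2 added later. Of the 8 genes most like the set, some are not reported here. Symbols were matched to RefSeq names: 15570 of 17463 were current, 1545 older and 348 neither.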

Additional observations from a re-analysis of the deposited data

Results flagged for a closer look

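In 14 of 44 groups of values the highest or lowest library lay apart from the rest, its gap to the nearest library exceeding 0.493 of the group's range for 9 libraries or 0.625 for 6. The cut-offs are set for normally distributed values, of which chance flags about 1 in 20. Levels were taken here as CPM without logarithms and are skewed, so chance can flag more of them than that. Whether the flagged levels would stand apart on a log scale was not tested. The values also share libraries and genes, so the 14 are not independent. In midkine tumours these were MSR1 in midkine 3-2 (13.6 CPM), and CSF1R (271 CPM), CD68 (88.9 CPM) and LYZ2 (1705 CPM) in midkine 4-2. The log2 ratio of ITGAM to CSF1R in midkine 3-2 (0.27) was the other.

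In vehicle tumours MSR1 (4.79 CPM) and MRC1 (63.0 CPM) in vehicle 4 lay apart, with the log2 ratio of MRC1 to CSF1R there (-0.24). Vehicle 5, the library with the fewest reads, lay apart in its log2 ratios to CSF1R of CD163 (-4.07), CD68 (-0.021), C1QB (1.52) and C1QC (2.05). The ITGAM ratio in vehicle 3 (-1.76) and the C1QA share of C1q reads in vehicle 2-2 (46.1%) completed the 14.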

How the results depend on the processing

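Under each of 25 alternatives all 10 genes stood higher in midkine and none passed the adjusted threshold, and no ratio or C1q share passed under those run for it. The median log2 fold change of the 10 genes (1.16) was 0.19 without the midkine libraries of title numbers 3 and 4, and with single libraries left out it ran from 0.74 (without midkine 4-2) to 1.49 (without vehicle 4). The 7 genes with an unadjusted p under 0.05 became 4 with library totals alone, 1 with limma-voom, 1 with title-number sums, 0 without title numbers 3 and 4 of midkine, 3 without midkine 1 and 4-2 together (chosen after seeing the data), and 2 to 10 with single libraries left out, lowest without vehicle 2-1 or vehicle 3 and highest without vehicle 4, midkine 1 or midkine 5. With library totals alone the median of all genes was -0.10, against 0.04 after scaling, and that of the 10 genes 1.09. With the title number as a replicate block 2 genes had an unadjusted p under 0.05 and the median was 0.76, but the numbers do not pair the libraries: same-numbered vehicle and midkine libraries deviated together with r of -0.184, -0.207, 0.104, -0.212 and -0.164 for numbers 2 to 6. Without title numbers 3 and 4 of midkine the log2 ratios to CSF1R of LYZ2 (-0.25) and ITGAM (-0.14) changed sign, and 11 of the 45 correlations passed, against 38 (this correlation setting and the summed one were chosen after seeing the data). Those counts are on Pearson's r. With single libraries left out 30 to 44 passed on r and 21 to 44 on rho (40 with all libraries), and the ratio differences ran from -0.27 to 0.0065 for CD68, from -0.11 to 0.15 for C1QA, from -0.19 to 0.077 for C1QB and from -0.18 to 0.048 for C1QC; the positive C1QA values came without vehicle 5, midkine 4-2 (0.048) or midkine 5 (0.036). The cause of these shifts was not tested. Depth limits MSR1 most, with as few as 4 reads in a library.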
